A study of Rattus norvegicus with 9 samples.

Results

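Angiotensin II (Ang II) and raised extracellular potassium, the main stimuli of aldosterone secretion, were compared directly with each other in rat adrenal zona glomerulosa cells. The comparison takes 6 of the 9 tubes of the study, 3 with Ang II and 3 with potassium, paired by experiment number. The 3 control tubes do not enter the test, and their signals are given as levels only. The cells, dispersed from rat adrenals by enzymes and mechanical force, were kept for 2 h at 37 °C in DMEM:F12 medium with albumin, either without addition, with 100 nM Ang II or with 16 mM potassium. Each of 3 independent cell preparations gave 1 tube to each group, and no strain, sex or age is stated in the labels used here. RNA of each tube was hybridised to 1 Affymetrix Rat Genome 230 2.0 array, which gives 1 linear signal per probe set, in arbitrary units.

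Ang II is a peptide hormone that acts on zona glomerulosa cells through the AT1 receptor, a Gq-coupled receptor that activates phospholipase C, releases calcium from stores and activates protein kinase C and the ERK branch of the MAP kinases. Raised potassium depolarises the same cells and opens voltage-gated calcium channels, and the calcium that enters acts through calmodulin-dependent kinases and the transcription factor CREB. Both routes lead to transcription of immediate early genes, those that respond without new protein synthesis, and to aldosterone production.

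After Ang II the cells held more RNA of the immediate early genes Egr4, Fosl1, Egr2 and Srf, of the MAP kinase feedback inhibitors Dusp5, Spry2 and Errfi1, of the protease inhibitor gene Serpinb2 and of Srxn1 than after potassium. After potassium they held more RNA of the CREB target genes Nr4a2, Rgs2 and Bdnf and of the developmental transcription factors Scx, Osr2 and Hhex. The immediate early genes went both ways, with 11 of 33 measured higher after Ang II and 5, Junb and Fosl2 among them, higher after potassium. Of 31 measured CREB and calcium target genes 5 were higher after potassium, 1 was higher after Ang II and 25 did not pass. Of the 31042 probe sets tested, 513 passed the test (adjusted p under 0.05, limma with preparation as a block and Benjamini-Hochberg adjustment), or 1.65%. Higher after Ang II were 329 probe sets (1.06%), and higher after potassium were 184 (0.593%). These stood for 230 named genes in the former direction and 129 in the latter, while 74 and 41 of the probe sets had no single gene symbol.

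The differences were mostly modest. The median size was 0.58 on the log2 scale among probe sets higher after Ang II and 0.60 among those higher after potassium. A fold above 2 was reached by 48 and 34 of them. All 329 and all 184 had the same direction in the 3 preparations, against 33.7% of all probe sets, and in 326 and 176 the tubes of both groups did not overlap, against 15.4% of all probe sets. The median difference over all probe sets was -0.01. The number of calls depended on how the spread was estimated: 307 passed without the block for preparation, 210 without preparation 1, and 0 when the spread was not modelled as a function of signal (limma without intensity trend, lowest adjusted p = 0.46, 2798 probe sets at an unadjusted p under 0.05). In no setting did a probe set among the 513 change its sign. Folds were computed on log2(signal + 16), so they are too small for dim probe sets, and 3 pairs of arrays set their precision.

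**Figure D1:**
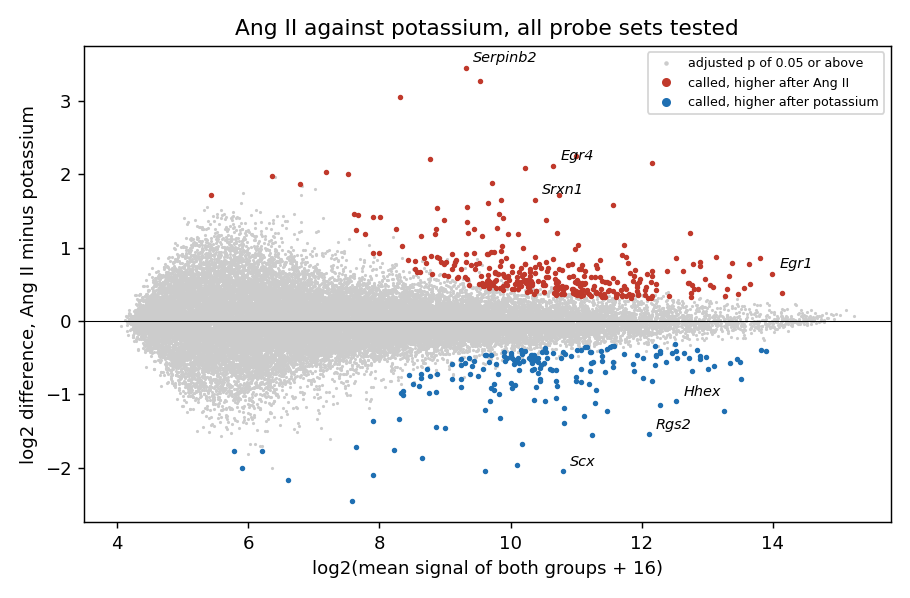
Log2 difference, Ang II minus potassium, against the mean signal of both groups for the 31042 probe sets, each a point, with the 329 called higher after Ang II in red and the 184 called higher after potassium in blue. Calls occur mainly at middle and high signals, and the largest, Serpinb2, lies at 3.46.

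The control tubes show where each stimulus stood relative to untreated cells, as a description without a test. Among the 329 probe sets higher after Ang II, the control mean lay between the means of both stimuli for 251, below both for 37 and above both for 41. Among the 184 higher after potassium, it lay below both for 100, between them for 78 and above both for 6. The first set therefore consisted mostly of transcripts whose mean was above control after Ang II and below control after potassium, and the second more often of transcripts whose mean was above control after both.

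Trimmed mean signals were 500 on all arrays, array medians ran from 128 to 173 and the highest signal from 33568 to 42803. The 13 measured zona glomerulosa markers summed to between 25186 and 28112.5 in the Ang II tubes, 28016 and 32951 in the potassium tubes and 27165 and 29036 in the controls, and none of the 13 had a mean under 83.7, the 40th percentile of all probe sets. Cyp11b2, the aldosterone synthase gene that defines the zone, was not analysed here. Fasciculata markers were also bright, with 4 measured genes summing to 55523 to 59792 after Ang II and 54280 to 60872 after potassium, and so were endothelial markers (12 genes, 35393 to 44489 and 38151 to 46490), so the tubes did not hold glomerulosa RNA alone. Medulla, macrophage, fibroblast, smooth muscle, lymphocyte, red cell and adipocyte markers had overlapping sums in both groups. None of the 86 measured entries of the 9 lists for other cell types passed the test, although 8 of them had an unadjusted p under 0.05. Fewer cells of a type and less RNA per cell cannot be told apart in such samples.

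The largest difference was that of Serpinb2, which encodes plasminogen activator inhibitor 2. Its signals were 1170.1, 1037 and 1256 in the Ang II tubes of preparations 1 to 3 and 60.9, 123 and 96.1 in the potassium tubes. The log2 difference was 3.46 ± 0.19 (moderated SE of limma, n = 3 pairs, adjusted p = 1.5e-04), or 11.0-fold. This SE, like those of the log2 differences below, borrows from other probe sets of like signal. It is not the spread between the 3 preparations alone. The lowest Ang II tube was far above the highest potassium tube, and the control tubes (146, 198 and 147) were all above the potassium tubes. Fancc, a Fanconi anaemia gene of DNA crosslink repair, had signals of 1856, 1009 and 1119.9 after Ang II and 91.0, 181 and 99.1 after potassium (9.65-fold, adjusted p = 0.0010). Of its 3 probe sets 2 passed, and the third had a positive difference of 0.77 with adjusted p = 0.25. Slc17a6, the vesicular glutamate transporter VGLUT2, gave 608, 477 and 575 after Ang II and 32.8, 63.2 and 66.4 after potassium (8.29-fold, adjusted p = 8.8e-04), again without overlap, and its controls (172, 118 and 98.1) lay between.

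The 15 largest differences in this direction held genes of varied function. Hmga1, an architectural chromatin protein, measured 2589 ± 299 (SD, n = 3) after Ang II and 782 ± 159 after potassium (3.30-fold, adjusted p = 4.2e-04), with controls between 1653 and 2209.7. Sdc1, the heparan sulfate proteoglycan syndecan-1, measured 1193 ± 80.9 and 385 ± 83.5 (3.06-fold, adjusted p = 7.6e-04), and both of its probe sets passed. For both genes every control tube lay between the groups. Rab7b, a small GTPase of endosomal traffic, differed 3.13-fold (adjusted p = 0.0012), from 1578, 1573 and 1013 after Ang II to 494, 368 and 417 after potassium, and it was the single gene of the 15 whose control mean was above both stimuli. Tet3, a methylcytosine dioxygenase, differed 2.64-fold, Bcat1, the cytosolic branched-chain aminotransferase, 2.90-fold, Dclk1, a microtubule-associated kinase, 2.74-fold, and Actr3b, related to the actin-nucleating Arp3, 2.69-fold. Of these, Dclk1 passed with 1 of its 4 probe sets, and Actr3b had an adjusted p of 0.0503 without preparation 1.

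Srxn1, Sprr1a and Prss22 were also among the 15. Srxn1, sulfiredoxin, which reduces oxidised peroxiredoxins, had signals of 2293, 1936 and 1739 after Ang II and 654, 691 and 516 after potassium (3.15-fold, adjusted p = 1.2e-04). Its brighter probe set gave 2.30-fold (adjusted p = 7.3e-04), and a dim one was lower by 0.55 on the log2 scale with adjusted p = 0.63. Sprr1a, a small proline-rich protein of injury responses, measured 940 ± 95.9 after Ang II, 314 ± 69.5 after potassium and between 111 and 210.2 in the controls (2.93-fold, adjusted p = 0.0031). The serine protease gene Prss22 was dim, with signals of 183, 242 and 217 after Ang II and 85.0, 40.2 and 14.6 after potassium (4.09-fold, adjusted p = 0.045), and its adjusted p was 0.0691 without preparation 2 and 0.109 without preparation 3. In all 15 genes the groups did not overlap, in 12 the potassium mean was below the control mean, and in 14 the Ang II mean was above it.

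**Figure D2:**
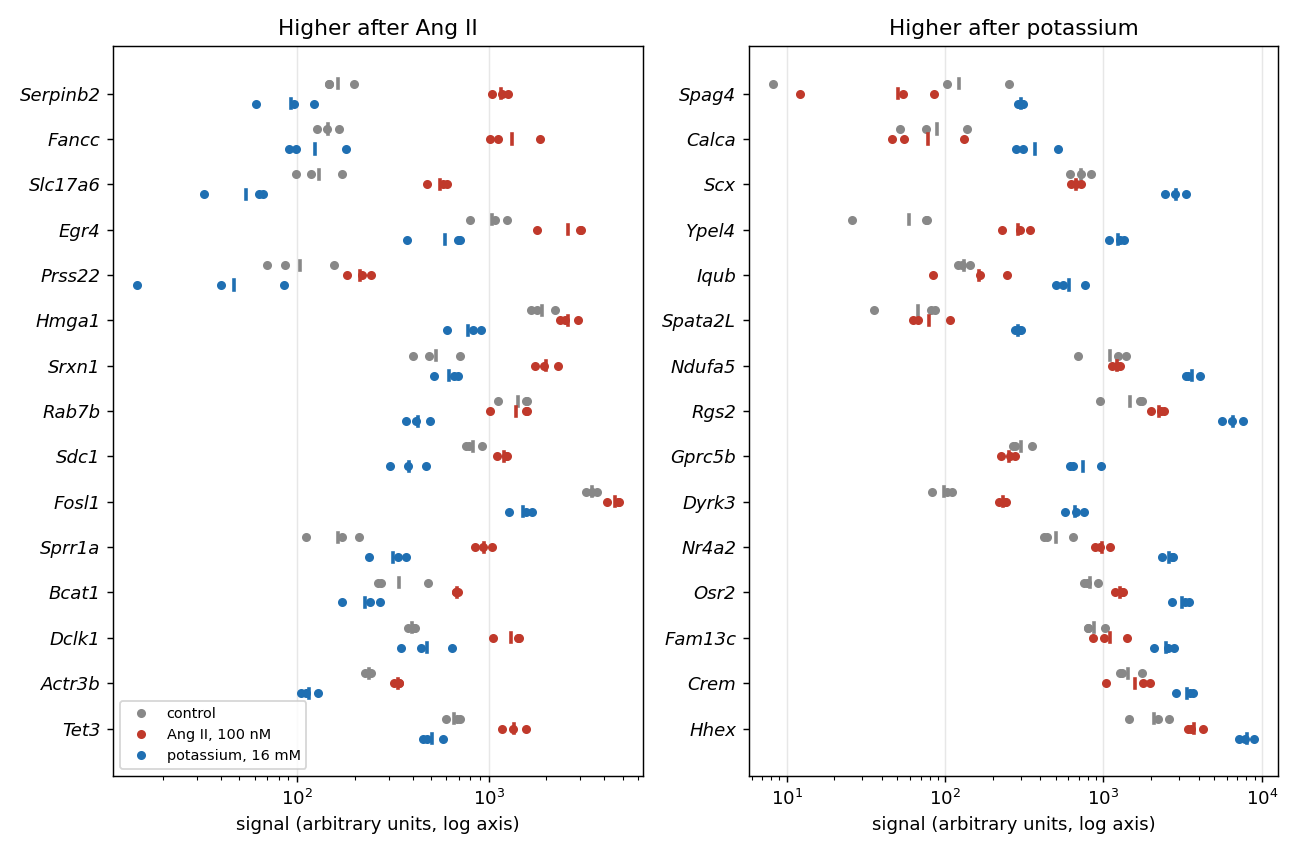
Signals (log axis) of every tube for the 15 named genes with the largest differences in each direction, with short bars at the group means of control (grey), Ang II (red) and potassium (blue). The red and blue points of a gene do not overlap in any of the 30, and the controls of Serpinb2, Hmga1 and Sdc1 lie between them.

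In the other direction, Scx combined a large difference with a narrow spread, and the fold of Ypel4 was similar. Scx, scleraxis, a helix-loop-helix transcription factor known from tendon, had signals of 725, 628 and 669.6 after Ang II and 3322, 2434 and 2814 after potassium (log2 difference -2.05 ± 0.08, adjusted p = 1.8e-05, 4.14-fold higher after potassium). The control tubes (613, 722 and 841) overlapped the Ang II tubes and lay far below the potassium tubes. Ypel4, a member of the yippee-like family, gave 230.4, 346 and 296 after Ang II, 1341, 1086 and 1276 after potassium and 76.3, 26.0 and 76.5 in the controls (4.11-fold, adjusted p = 7.1e-04). Here the 3 groups were fully separate, in the order control, Ang II, potassium.

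Calca, which encodes calcitonin and the peptide CGRP, measured 55.2, 132 and 46.3 after Ang II and 309, 519 and 279.7 after potassium (4.27-fold, adjusted p = 0.0026), with 1 of its 3 probe sets passing and all 3 lower after Ang II. Spag4, a nuclear envelope protein, had the largest fold in this direction (5.45, adjusted p = 0.016), but its signals were dim (84.6, 54.1 and 12.1 against 290.3, 311 and 304), its controls ranged from 8.19 to 255, and it lost its call with all 9 arrays in the fit (adjusted p = 0.0526). Iqub, a gene of motile cilia, measured 83.9, 245 and 166 against 499, 768 and 554 (3.65-fold, adjusted p = 0.0023). Spata2L differed 3.29-fold through 1 of its 3 probe sets (adjusted p = 0.0099), and the others gave differences of -0.01 and 0.27. Ndufa5, a subunit of respiratory complex I, measured 1139, 1279.9 and 1224 after Ang II and 4084, 3412 and 3318 after potassium (2.93-fold, adjusted p = 2.0e-04), with controls at 1229, 688 and 1384. It was the only 1 of 27 measured respiratory chain and ATP synthase genes to pass, and the median of that list was -0.07.

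Rgs2, which shortens Gq signals, was also among the 15 and is described with the CREB targets below. Dyrk3, a dual-specificity kinase, gave 219, 238 and 242 after Ang II, 753, 571 and 674 after potassium and 111, 82.3 and 103 in the controls (2.73-fold, adjusted p = 0.0020). Gprc5b, an orphan receptor, measured 227, 278 and 259 against 972, 647 and 611 (2.76-fold, adjusted p = 0.0060), and its controls (268, 356 and 276) were near the Ang II tubes. Fam13c differed 2.28-fold with both of its probe sets passing. In 11 of these 15 genes the control mean was below both stimuli, in the other 4 it lay between them, and in none was the potassium mean below the control mean.

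The gene lists describe the comparison by function. The 33 lists held 810 different genes, of which 716 were measured, each by its brightest probe set. Of these, 45 were higher after Ang II and 22 higher after potassium, against 217 and 110 of all 14217 named genes (2.30% called in all, median difference -0.01). The lists were chosen with earlier results of these data known. Most of their genes were also bright, while the 14217 include dim genes. The larger share of calls in the lists therefore cannot show that these functions differed more than others. The same limit applies where a single list is set against all probe sets below. Without preparation 1 the number called over all lists was 36 in place of 67. Without the block for preparation it was 44, and of the genes named here Inhba (adjusted p = 0.514), Adamts4, Cish, Klf2, Cryab, Bmp2, Osgin1, Maff, Por, Hmox1, Slc2a1, Selp, Cebpg, Gars1, Tbx3, Mmp3, Ier5, Id2, Map2k1, Plaur, Hspa4, Angptl4, Cxcl10 and Prss22 (0.0541) lost their call, with values between these.

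**Figure D3:**
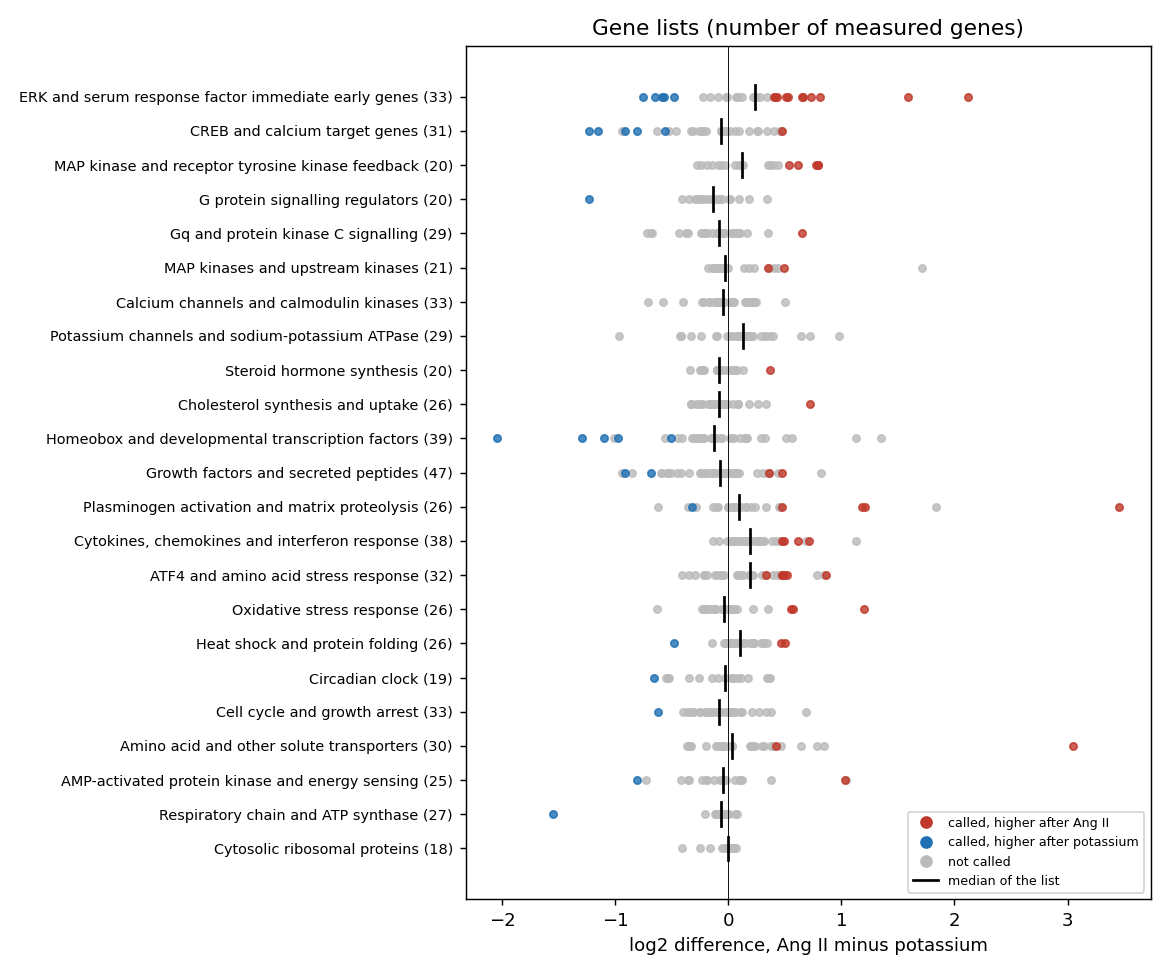
Log2 difference, Ang II minus potassium, of every measured gene (points) of the 23 pathway lists, red or blue where called and grey where not, with a black bar at the median of each list. The immediate early genes reach from -0.75 to 2.12 with calls on both sides, and the feedback, cytokine and ATF4 lists have calls on the Ang II side only.

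ERK and serum response factor immediate early genes held the most calls. Of 33 measured, 11 were higher after Ang II, 5 were higher after potassium and 17 did not pass, with a median of 0.24. The early growth response factors were higher after Ang II. Egr4 had signals of 2975, 1780.2 and 3017 after Ang II and 707, 372 and 694 after potassium (2.12 ± 0.08, adjusted p = 1.6e-05, 4.34-fold), and its second probe set was also higher by 1.46 without passing (adjusted p = 0.18). The differences of the 3 preparations, 2.05, 2.21 and 2.10, were nearly the same. Egr1 measured 20586, 18786 and 20368 against 12719, 12021 and 13358 (1.57-fold, adjusted p = 0.0016), and Egr2 1259, 978 and 1254 against 739.7, 580.5 and 641 (adjusted p = 0.0034). For all 3 the potassium mean was below the control mean, and in Egr1 only the third preparation's potassium tube reached the lowest control tube (13256).

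Fosl1, which encodes the AP-1 subunit FRA-1, measured 4764, 4709 and 4143 after Ang II, 1279.7, 1561 and 1680.2 after potassium and 3689, 3216 and 3437 in the controls (3.00-fold, adjusted p = 3.2e-04). Its relatives behaved otherwise. Fosl2 (FRA-2) was higher after potassium, at 844, 897 and 926 against 504, 471 and 596 (-0.75 ± 0.10, adjusted p = 0.0087), and so was Junb, at 9974, 10761 and 9593 against 6252, 6188 and 6878 (-0.65 ± 0.07, adjusted p = 0.0039). Fos itself gave 13049, 12604 and 13413 after Ang II and 13835, 12830 and 12848 after potassium, a difference of -0.02 with a 95% interval of -0.15 to 0.12. The AP-1 genes thus split in direction, Fosl1 on the Ang II side and Fosl2 and Junb on the potassium side.

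Srf, the serum response factor gene, which is itself a target of the factor it encodes, measured 1838, 2074 and 2058 after Ang II and 1018, 1316 and 1473 after potassium (0.66 ± 0.09, adjusted p = 0.0085). The Ang II tubes were within the range of the control tubes (1617, 2118 and 2023), and the potassium tubes were below it. Of its 3 probe sets this was the only one to pass, and the others gave 0.33 and -0.11. Klf5 (0.73 ± 0.08), Id3 (0.53 ± 0.07), Klf2 (0.51), Klf6 (0.44), Maff (0.41) and Ier5 (0.41) were also higher after Ang II, and Klf4 (-0.48), Klf10 (-0.58) and Id2 (-0.57) were higher after potassium. In all 11 genes higher after Ang II the control mean lay between the means of both stimuli. The calls of Klf2, Klf4, Klf6, Klf10, Ier5, Maff and Id2 were lost without preparation 1 (adjusted p from 0.0631 to 0.153), which left 7 and 2 called genes of this list. Maff was also lost without preparation 2 (0.0756) and without preparation 3 (0.0578), and Klf10 without preparation 2 (0.0593). Without the block for preparation 8 and 4 were called. With a gene taken as the mean of its probe sets instead of the brightest, 7 and 5 were called.

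Promoter sequence is shown for Egr2, Srf and Egr4 of this list and for Dusp5 of the feedback list below. These genes were chosen by hand and do not stand for all called genes. The CArG box, the sequence bound by serum response factor, is the textbook link between ERK signalling and immediate early genes. The windows come from RefSeq promoters on build GRCr8 and lie within the 250 bases before each gene's start. They read 5′ to 3′ on the gene's strand, and capitals mark a CArG box or the pentamer TGACG, on either strand (CGTCA on the other), which is the core of the cAMP response element TGACGTCA bound by CREB and so lies within each full element. The windows are chr20:21054500-21054539 (minus strand) for Egr2, chr9:21923980-21924039 (plus) for Srf, chr1:262543677-262543726 (plus) for the feedback phosphatase Dusp5 and chr4:119607908-119608010 (minus) for Egr4.
Egr2: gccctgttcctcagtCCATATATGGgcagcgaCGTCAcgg
Srf: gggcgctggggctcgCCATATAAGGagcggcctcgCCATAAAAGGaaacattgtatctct
Dusp5: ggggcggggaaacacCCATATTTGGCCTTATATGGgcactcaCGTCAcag
Egr4: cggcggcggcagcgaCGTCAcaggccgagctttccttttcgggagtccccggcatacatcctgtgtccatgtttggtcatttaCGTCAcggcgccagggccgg

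Srf and Dusp5 each held 2 CArG boxes and Egr2 held 1, within 98 bases of the start, while the Egr4 window held 2 TGACG pentamers and no CArG box. Promoters were found for 199 of the 230 genes higher after Ang II and 105 of the 129 higher after potassium. A CArG box stood in 5 of the 199 (2.51%), in 0 of the 105, in 1.24% of the 11734 promoters of genes with a named probe set and in 1.5% of all 27457 promoters. A match describes these letters only and is not a site in use.

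CREB and calcium target genes passed mostly on the potassium side. Of 31 measured, 5 were higher after potassium (Nr4a2, Nr4a3, Rgs2, Bdnf and Sik1), 1 was higher after Ang II (Inhba) and 25 did not pass, with a median of -0.07. In all 5 the control mean was below both stimuli, so each mean was above control after either stimulus and further above after potassium. Rgs2, a regulator that speeds the shut-off of Gq proteins, had signals of 6134, 5108 and 6378 after Ang II, 14519, 13425 and 13230.1 after potassium and 4649.5, 3729.7 and 4682 in the controls (-1.23 ± 0.07, adjusted p = 2.1e-04, 2.34-fold higher after potassium). Its dimmer probe set differed 2.92-fold (adjusted p = 6.7e-05). It was the only 1 of 20 measured genes of G protein signalling regulators to pass, and the median of that list was -0.14.

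The NR4A orphan nuclear receptors, which act on promoters of steroid enzyme genes, split within the family. Nr4a2 (NURR1) measured 2642, 3544 and 3099.8 after Ang II, 7888, 6095 and 6624 after potassium and 1529, 1536 and 2343 in the controls (-1.15 ± 0.13, adjusted p = 0.0037), and its second probe set differed 2.63-fold. Nr4a3 (NOR1) measured 9248, 8029 and 10792 against 13883, 13277 and 13932 (-0.56 ± 0.08, adjusted p = 0.010), with 2 of 3 probe sets passing, and without preparation 1 its adjusted p was 0.0515. Nr4a1 (NUR77) gave 10119, 10724 and 12499.6 after Ang II and 11968, 10533 and 11218 after potassium, a difference of -0.02 with a 95% interval of -0.20 to 0.16. The tubes of both groups were interleaved for Nr4a1 and fully separate for Nr4a2 and Nr4a3.

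Bdnf, brain-derived neurotrophic factor, measured 551, 511 and 625 after Ang II, 966, 1179.9 and 1066 after potassium and 359.8, 328 and 297 in the controls (1.88-fold higher after potassium, adjusted p = 0.0054), and its other probe set gave 0.21 without passing. Sik1, a salt-inducible kinase that restrains CREB coactivators, measured 966, 1151 and 859 against 2114, 1428 and 1742 (-0.81 ± 0.14, adjusted p = 0.032). Its call was lost without preparation 1 (adjusted p = 0.132) and without preparation 3 (0.0718). Crem, the cAMP response element modulator, belongs to the same route and was among the 15 largest differences, with 1786, 1958 and 1036 after Ang II and 3530.3, 3686 and 2889.6 after potassium (2.17-fold, adjusted p = 0.0020). Of its 6 probe sets 4 passed, and all 6 were lower after Ang II, but the brightest, which stands for it in the list, gave -0.23 and did not pass (adjusted p = 0.14). Inhba, the activin subunit, was higher after Ang II by 0.47, but its tubes overlapped between groups (1825, 2860.3 and 1714 against 1325, 2046 and 1226), and the adjusted p was 0.0619 without preparation 1.

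**Figure D4:**
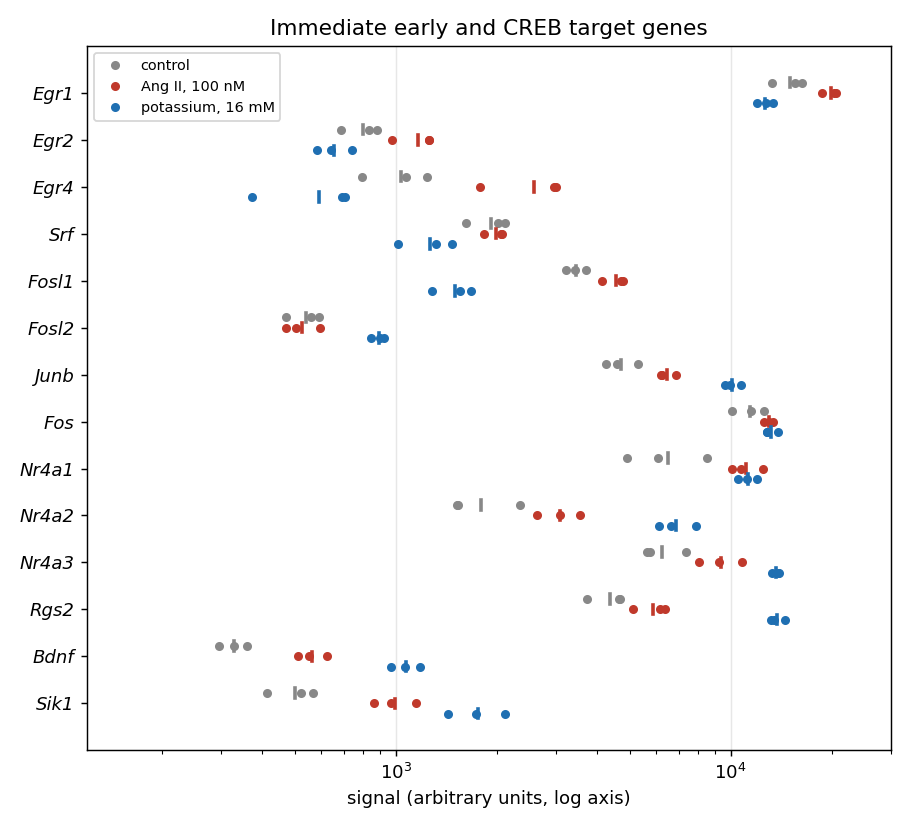
Signals (log axis) of every tube for 14 immediate early and CREB target genes, with short bars at the means of control (grey), Ang II (red) and potassium (blue) tubes. Egr1, Egr2, Egr4, Srf and Fosl1 have blue to the left of red, Nr4a2, Nr4a3, Rgs2, Bdnf and Sik1 have blue to the right, and Fos and Nr4a1 overlap.

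The promoter windows of 3 of the potassium-side genes, also chosen by hand, are shown for their TGACG pentamers, again in capitals, with build and source as above. They are chr3:62104888-62104910 for Nr4a2, chr13:58352863-58352897 for Rgs2 and chr20:9958807-9958852 for Sik1, all on the minus strand.
Nr4a2: tatttcagggagatcTGACGggc
Rgs2: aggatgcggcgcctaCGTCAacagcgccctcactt
Sik1: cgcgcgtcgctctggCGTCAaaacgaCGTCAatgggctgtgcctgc

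The pentamer was not particular to the potassium-side genes shown. Nr4a2 and Rgs2 held 1 match each and Sik1 held 2. Of the Ang II-side genes shown above, Egr2, Srf and Dusp5 held 1 match each, that of Srf outside its window, and Egr4 held 2. The shares of promoters with the pentamer were close on both sides. It stood in 34.3% of the promoters of genes higher after potassium and in 36.7% of those higher after Ang II, against 25.8% of the promoters of genes with a named probe set and 19.0% of all promoters. The full element TGACGTCA stood in 5.71% and 5.03%, against 2.64% and 1.7%. The AP-1 site TGANTCA stood in 6.67% of the potassium side and 7.54% of the Ang II side, against 4.84% of genes with a named probe set, and the EGR site GCGGGGGCG in 3.81% and 5.53%, against 4.41%.

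The list of MAP kinase and receptor tyrosine kinase feedback genes passed on the Ang II side, 5 of 20 measured, with 0 on the potassium side and a median of 0.12. It also holds Cish, an inhibitor of cytokine signalling. Dusp5, a nuclear phosphatase of ERK, measured 4733, 4419 and 4325 after Ang II and 2466, 2438 and 2895 after potassium (0.79 ± 0.08, adjusted p = 0.0024), with controls (3068, 2998 and 3431) between. Spry2, sprouty 2, measured 9042, 9412 and 8228 against 5725, 4899 and 4951 (0.78 ± 0.07, adjusted p = 0.0016), and Errfi1, an inhibitor of the EGF receptor, 14288, 12903 and 13112 against 7457, 8689 and 7150.3 (0.79 ± 0.08, adjusted p = 0.0024). No tube of either group overlapped the other in these 3. Socs5 (0.61 ± 0.06) differed the same way while its controls (5518, 5113 and 4970) were above both, and Cish (0.54 ± 0.08), whose controls (901, 799.7 and 925) were lowest on average, was lost without preparation 1 (adjusted p = 0.0680). The other probe set of Cish gave 0.20 (adjusted p = 0.62). Some of these genes are taken as ERK targets themselves, so this list overlaps in kind with the immediate early genes.

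Kinases of the Ang II route passed in a few cases. Of 29 measured genes of Gq and protein kinase C signalling, 1 passed, Prkcd, protein kinase C delta, at 4495, 4281 and 4497 after Ang II and 2620.1, 2540.2 and 3306 after potassium (0.66 ± 0.08, adjusted p = 0.0058), with controls (3799.9, 3877 and 4159) between. The median of that list was -0.08. Of 21 measured MAP kinases and upstream kinases, Map2k3 (0.50, adjusted p = 0.015) and Map2k1 (0.35, adjusted p = 0.045) were higher after Ang II, and Map2k1 passed in none of the fits that left out 1 preparation (adjusted p from 0.0873 to 0.193). Mapk7, the kinase ERK5, was dim and gave 1.72 (95% interval 0.93 to 2.50, adjusted p = 0.053), with 177, 125 and 157 against 29.7, 18.3 and 68.8. From another list, that of AMP-activated protein kinase and energy sensing, its catalytic subunit gene Prkaa1 differed 2.05-fold through 1 of its 3 probe sets. The signals went from 4493, 4368 and 4713 after Ang II to 2467, 1969.6 and 2201 after potassium (adjusted p = 5.1e-04), while the other probe sets gave 0.05 and 0.26. Of the 25 measured genes of that list 1 passed on each side, and the median was -0.05.

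Genes of the calcium and potassium machinery itself showed no call. By limma, 0 of 33 measured calcium channel and calmodulin kinase genes and 0 of 29 measured potassium channel and sodium-potassium ATPase genes passed, with 3 and 4 at an unadjusted p under 0.05. The median differences were -0.05 and 0.13. The potassium leak channel gene Kcnk3 (TASK-1) gave -0.33 (95% interval -0.56 to -0.11, adjusted p = 0.19), and the plasma membrane calcium pump gene Atp2b1 0.20 (0.04 to 0.35, adjusted p = 0.27). Other, dimmer probe sets of Kcnk3 disagreed, with -0.89 (adjusted p = 0.058) and 0.54 (adjusted p = 0.45). Those of Atp2b1 gave 0.01 and -0.14. Of the alternatives run, leaving out preparation 2 called 1 potassium channel gene.

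Of 20 measured steroid synthesis genes 1 passed, and the median was -0.08. Star, which carries cholesterol into mitochondria, measured 23859, 22825 and 22441 after Ang II, 24650.0, 23429 and 23527 after potassium and 20542, 16584 and 19492 in the controls, a difference of -0.05 with a 95% interval of -0.19 to 0.08. The tubes of both stimuli were interleaved and all above the controls. The intervals of the side-chain cleavage enzyme Cyp11a1 (-0.09 to 0.19), of Hsd3b1 (-0.12 to 0.17) and of the 21-hydroxylase Cyp21a1 (-0.21 to 0.07) also included 0 and lay within 0.21 of it.

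Cyp11b1, the 11beta-hydroxylase gene, was lower after Ang II by 0.22 in the fit (95% interval -0.37 to -0.06) without passing over all probe sets (adjusted p = 0.23), and it varied more between preparations (4552, 2467 and 2895 after Ang II, 5413, 3095 and 3045 after potassium) than between stimuli. The passing gene was Por, the electron donor of microsomal P450 enzymes, at 3966, 3259.9 and 3349.6 against 2802, 2579 and 2769 (0.37 ± 0.07, adjusted p = 0.039). Its call was lost without preparation 1 (adjusted p = 0.22) and without preparation 2 (0.0569). Nr5a1 (SF-1), the master regulator of steroid genes, gave -0.24 (95% interval -0.41 to -0.07, adjusted p = 0.20). The angiotensin receptor genes Agtr1a (-0.21, 95% interval -0.41 to -0.01, adjusted p = 0.38) and Agtr1b (-0.22, -0.40 to -0.04, adjusted p = 0.30) did not pass either. Mc2r was not analysed here.

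**Figure D5:**
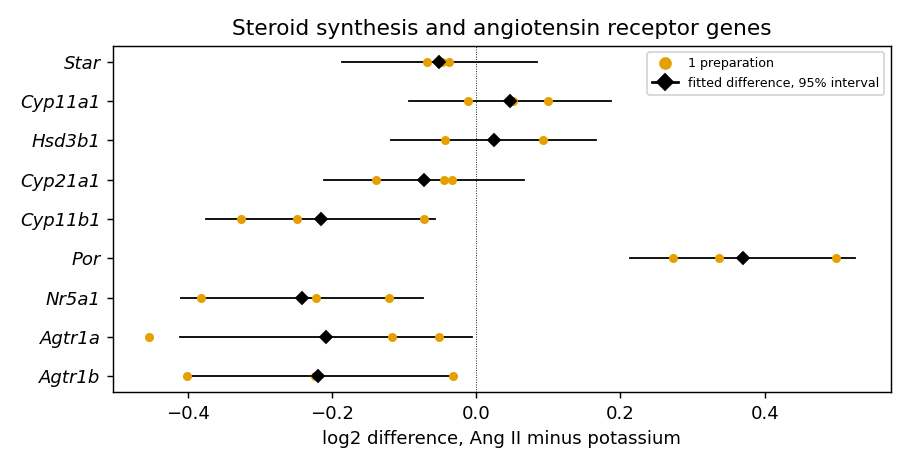
Log2 difference, Ang II minus potassium, in each preparation (orange points) with the fitted difference and its 95% interval (black) for steroid synthesis genes, Nr5a1 and the angiotensin receptors. Star, Cyp11a1, Hsd3b1 and Cyp21a1 lie close to 0, and Por, the passing gene, lies at 0.37.

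Among 26 measured genes of cholesterol synthesis and uptake, the sterol methyl oxidase gene Msmo1 passed, at 1809, 1599 and 1843 after Ang II and 1163, 939.5 and 1076 after potassium (0.72 ± 0.07, adjusted p = 0.0026). Its Ang II tubes were all above the controls (1326, 1090.2 and 1162), which overlapped the potassium tubes. Idi1 gave 0.26 (adjusted p = 0.10) and Insig1, which holds back the sterol-sensing SREBP pathway, -0.26 (adjusted p = 0.099). The median of the list was -0.08.

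Homeobox and other developmental transcription factors passed on the potassium side, 5 of 39 measured, with 0 on the Ang II side and a median of -0.13. Besides Scx, these were Osr2, at 1176, 1323 and 1317 after Ang II and 2712, 3495 and 3269 after potassium (2.45-fold, adjusted p = 1.2e-04), Hhex, Hoxa5 and Tbx3. Hhex, a homeobox gene of early endoderm and blood vessels, measured 4235, 3439 and 3570.2 against 8982, 7205 and 7893 (2.14-fold, adjusted p = 1.2e-04), with controls of 2594, 1451 and 2223. For Osr2 and Hhex the 3 groups were fully separate, in the order control, Ang II, potassium. Hoxa5 gave -0.98 ± 0.13 and Tbx3 -0.51 ± 0.09, and both were lost without preparation 1 (adjusted p = 0.0551 and 0.184), Tbx3 also without preparation 3 (0.0723).

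Extracellular proteolysis and clotting genes were mostly on the Ang II side, 4 of 26 measured against 1 on the potassium side, with a median of 0.10. Besides Serpinb2, F3, which encodes tissue factor, the starter of coagulation, measured 1021, 699.7 and 974 after Ang II and 334, 422 and 373 after potassium (2.31-fold, adjusted p = 0.0087), and the matrix protease gene Mmp3 1084, 1581 and 1385 against 349.8, 780.1 and 705 (2.27-fold, adjusted p = 0.0034). The controls of both genes (372, 407 and 425 for F3, 386, 733 and 422 for Mmp3) were in or near the range of the potassium tubes. Plaur, the urokinase receptor gene, gave 0.48 ± 0.07, and Adamts4, a protease of proteoglycans, was higher after potassium (-0.32 ± 0.06). Without preparation 1 Plaur and Adamts4 lost their call (adjusted p = 0.0836 and 0.193), and Adamts4 also lost it without preparation 2 (0.0771) and without preparation 3 (0.0919).

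Cytokine, chemokine and interferon response genes passed on the Ang II side. The difference was positive for 35 of 38 measured, against 48.9% of all probe sets, 4 passed (Cxcl11, Gbp2, Cxcl10 and Selp), 0 passed on the potassium side, and the median was 0.19. Gbp2, an interferon-induced GTPase, measured 12185, 14000.5 and 11435 after Ang II, 7599, 8773 and 8062 after potassium and 9431, 10625 and 9058 in the controls (0.62 ± 0.06, adjusted p = 0.0026). Cxcl11, a T cell attractant, measured 2244, 1986 and 2102 against 1434, 1256 and 1166 (0.71 ± 0.07, adjusted p = 0.0028), and its controls (2468, 1819 and 2205) overlapped the Ang II tubes. For all 4 genes the potassium mean was below the control mean. Macrophage markers, in the same tubes, summed to 11802 to 15248 after Ang II and 9964 to 15063 after potassium with 0 of 14 passing, and the part of such cells in these differences was not tested. Selp lost its call without preparation 1 (adjusted p = 0.132).

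ATF4 and amino acid stress response genes had 6 calls of 32 measured on the Ang II side, 0 on the other and a median of 0.19. Trib3, a pseudokinase induced by ATF4, measured 654, 511 and 651 after Ang II, 333, 258 and 389.5 after potassium and 796, 552 and 687 in the controls (0.87 ± 0.12, adjusted p = 0.0099), and all 3 of its probe sets passed. Psat1, an enzyme of serine synthesis, measured 913, 823 and 883 against 621, 604 and 588 (0.52 ± 0.09, adjusted p = 0.030), with controls of 1089.8, 1055 and 975. Asns, Sesn2, Cebpg and Gars1 gave 0.34 to 0.49. The other probe set of Cebpg went the other way (-0.48, adjusted p = 0.38), and that of Gars1 gave 0.06 (adjusted p = 0.95). By the brightest probe set of each of the 6 genes, the potassium mean was below the control mean in all, and in 3 the Ang II mean was too. Leaving out preparation 1 removed all 6 calls (adjusted p from 0.0583 to 0.22), although their differences stayed positive. Without preparation 3, of the 6 only Trib3 (adjusted p = 0.0166) and Sesn2 (0.0295) kept their call. The list then had 3 calls, which included a gene not called in the main fit. Cebpg was also lost without preparation 2 (0.0877).

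Oxidative stress genes passed in 3 of 26 measured cases on the Ang II side, and the list median was -0.04. Besides Srxn1, these were Hmox1, heme oxygenase 1 (0.57 ± 0.09, adjusted p = 0.016), and Osgin1, at 2823, 2093 and 2409.6 after Ang II and 1602, 1396 and 1984 after potassium (adjusted p = 0.033), far below its controls of 5606, 4745 and 5341. Without preparation 1 the calls of Hmox1 and Osgin1 were lost (adjusted p = 0.0833 and 0.143). Among 26 heat shock and folding genes, Cryab, a small heat shock protein (0.47 ± 0.06), and Hspa4 (0.50) were higher after Ang II, and Bag3, a cochaperone, was higher after potassium, at 5773, 5554 and 5350.2 against 3900.1, 4014 and 4057 (-0.48 ± 0.06, adjusted p = 0.0086). All 3 had adjusted p from 0.0552 to 0.0583 without preparation 1, and Hspa4 was also lost without preparation 2 (0.0981) and without preparation 3 (0.0774).

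Single members of other lists also passed. Cry2, a repressor of the circadian clock, was higher after potassium, at 1577, 1592 and 1489 against 948, 1074 and 913 (-0.66 ± 0.08, adjusted p = 0.0047), 1 of 19 clock genes measured. Gadd45g, a growth arrest gene, was also higher after potassium, at 4119, 3419 and 3421 against 2604, 2183 and 2298 (-0.62 ± 0.06, adjusted p = 0.0023), 1 of 33 cell cycle genes measured. Angptl4, a secreted inhibitor of lipoprotein lipase, measured 5987, 4089 and 6060.4 after Ang II and 8363, 7980.0 and 9269 after potassium (-0.68 ± 0.09, adjusted p = 0.0088), and its controls (10942, 8997 and 10884) were on average above both. Bmp2 gave 0.36 ± 0.06, and its adjusted p was 0.134 without preparation 1 and 0.106 without preparation 2. Among 30 measured transporters, Slc2a1, the glucose transporter GLUT1, gave 0.42 (adjusted p = 0.049, 0.234 without preparation 1 and 0.0634 without preparation 3) beside Slc17a6. Of 18 measured cytosolic ribosomal protein genes 0 passed by limma, with 1 at an unadjusted p under 0.05 and a median of 0.00.

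Of the zona glomerulosa markers, 1 of 13 passed, with 6 at an unadjusted p under 0.05 and a median of -0.17. Wnt4, a signal that maintains the zone, measured 4480.1, 4332 and 4049 after Ang II, 5872, 5657 and 5529 after potassium and 5316, 5106 and 5655 in the controls (-0.41 ± 0.06, adjusted p = 0.013). The Ang II tubes were below every control tube, and the potassium tubes overlapped the controls. Without preparation 1 its adjusted p was 0.0671. Shh, the hedgehog ligand of the zone, was dim and gave -1.60 (95% interval -2.48 to -0.72, adjusted p = 0.10), with 136, 50.2 and 16.6 after Ang II and 192, 285 and 131 after potassium. The summed marker signal of the zone, given above, ran lower in the Ang II than in the potassium tubes with ranges that overlapped, and its part in the Wnt4 difference was not tested.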

How the data were processed

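The labels give 9 arrays of rat adrenal zona glomerulosa cells in 3 groups of 3, and groups and preparation numbers come from the sample titles. The deposited table holds 1 linear intensity per probe set and array, made with GCOS, the array maker's software, per the submitters' processing notes. How background was removed and probes were summarised is not given in the sources here. Every deposited column belonged to a sample of the study (0 others). Detection calls were not used here.

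Of 31099 probe sets, 57 controls were left out. Symbols came from the platform annotation, updated through RefSeq genes (GRCr8): 20826 probe sets had 1 symbol (14217 genes), 436 several and 9780 none. Cyp11b2 and Mc2r were not analysed here. Values were taken as log2(signal + 16) without scaling, and the 6 arrays were fitted in R 4.3.3 by limma 3.58.1 (eBayes with intensity trend), with preparation as a fixed block and Benjamini-Hochberg adjustment over 31042 probe sets at 0.05. The fit had 2 residual degrees of freedom, and the variance prior added 6.42. The design text says that each preparation supplied 1 tube per group. Deviations from the group means correlated at 0.0448 to 0.0790 within a preparation and at -0.0563 to 0.0031 between preparations.

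Named genes are the 15 largest differences in each direction among called probe sets with 1 symbol, the same direction in all preparations and a mean above the 40th percentile (by the probe set with the smallest p), a fixed set of 14 steroid, receptor and immediate early genes, and of each list the called members and the 4 with the smallest p (by the brightest probe set). The comparison, the lists and the rule were chosen with earlier results of these data known. Tested on simulated data over 31042 probe sets, the fit recovered 34% of 100 changes of 0.5 (log2) and 77% of 100 changes of 1, with 2 false calls of 113. The changes were placed only in probe sets above the 40th percentile. The simulated noise was normal, with spreads from the same intensity trend that the fit assumes. The false calls therefore cannot test that assumption, without which no probe set was called. Alternatives were other scalings, pseudocounts of 1 and 64, a filter at the 40th percentile, all 9 arrays, no replicate block, other variance priors, leaving out each preparation and, for lists, the mean of a gene's probe sets.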

Additional observations from a re-analysis of the deposited data

How the results depend on the processing

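Each of the 4 counts (probe sets called, higher after Ang II, higher after potassium, and list genes called: 513, 329, 184 and 67) stayed within 1.5 times under median scaling, quantile normalization, both pseudocounts, all 9 arrays and the robust prior. They became 952, 595, 357 and 108 with the filter above the 40th percentile, where 18625 probe sets were tested, and 893, 577, 316 and 104 with the filter and all 9 arrays. Without the replicate block they became 307, 198, 109 and 44, and without an intensity trend 0, 0, 0 and 0, with 2798 probe sets at an unadjusted p under 0.05 and the lowest adjusted p at 0.46. Leaving out 1 preparation gave 210 to 451, 129 to 292, 81 to 159 and 36 to 66, lowest without preparation 1. With the mean of all probe sets of a gene, 53 list genes passed. The share of calls higher after Ang II was 61.4% to 64.8% wherever there were calls. Of the 89 called probe sets of named genes, 51 lost their call only without the trend, 23 in 2 or 3 settings and 15 in 4 or more. Of 84 not called, 15 were called in at least 1 setting. No called difference changed its sign in any of the fits by probe set. For the mean of a gene's probe sets, signs were not compared. Why the counts moved was not tested. Dim probe sets and fewer residual degrees of freedom limit what small differences can be called.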

Other observations

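The list of called genes held many factors of ribosome assembly and several aminoacyl-tRNA synthetases, groups that the lists above do not treat as such (Gars1 is also counted among the ATF4 genes). Both groups were written down after these values had been seen, so the counts are a description without a test. Of 92 measured ribosome biogenesis factors, 17 were higher after Ang II than after potassium, 0 were higher after potassium, and 75 differences were positive (median 0.27, range -0.34 to 0.95). Rrs1, a factor of the large ribosomal subunit, measured 1068, 1246 and 1038 after Ang II, 671, 583 and 471 after potassium and 977, 1107 and 1051 in the controls (0.95 ± 0.11, limma adjusted p = 0.0047). Nop58, a core protein of box C/D small nucleolar ribonucleoproteins, measured 6226, 7079 and 6512 against 3791, 4148 and 4426 (0.68 ± 0.07, adjusted p = 0.0021), with controls from 4960 to 6041. Wdr43 (0.79 ± 0.08), Mphosph10 (0.81 ± 0.12), Rpf2 (0.87 ± 0.13) and Pum3 (0.73 ± 0.08) differed alike. In all 17 the tubes of both stimuli did not overlap and the potassium mean was below the control mean, and in 13 the Ang II mean was above it. Among all 329 probe sets higher after Ang II, 326 did not overlap. Their control mean lay between both stimuli for 251, above both for 41 and below both for 37. These counts are thus not particular to ribosome factors.

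Of 19 measured cytosolic aminoacyl-tRNA synthetases, which charge transfer RNA with amino acids, 6 were higher after Ang II (Iars1, Cars1, Rars1, Yars1, Tars1 and Gars1), 0 were higher after potassium, and 16 differences were positive (median 0.21). Of all 14217 named genes, 217 were called higher after Ang II and 110 higher after potassium. Of all probe sets, 48.9% had a positive difference. Both shares include dim probe sets. Iars1 measured 1369, 1265 and 1243 after Ang II and 747, 752 and 775 after potassium (0.76 ± 0.08, limma adjusted p = 0.0035), with controls of 1201, 1163 and 989. In all 6 the potassium mean was below the control mean, as in most probe sets called higher after Ang II. The cytosolic ribosomal protein genes, measured on the same arrays, had a median of 0.00 with 0 of 18 called.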
